A study of Mus musculus with 4 samples.

Results

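The serpin family was followed as 58 genes, which the array reads with 74 probes printed as 83 spots, out of 22327 named genes, 39429 probes and 43020 spots other than controls. Its members were chosen by a gene name in the files that is Serpin followed by a clade letter from a to i, a number and an optional letter. Clade A holds 23 of the genes, clade B 26, and each of the other clades holds 1 or 2. The rule used names and no measured value.

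Pnpla7-/- mice and their Pnpla7+/+ (wild-type) controls, all C57BL/6N and 4 weeks old, were compared in 2 tissues, liver and white adipose tissue (WAT). Pnpla7 encodes a lysophospholipase of the endoplasmic reticulum, and the series title concerns choline set free from phosphatidylcholine in the liver. Each of the groups (knockout liver, wild-type liver, knockout WAT, wild-type WAT) is 1 array, hybridised with Cy3-labelled RNA that was mixed in equal amounts from 5 animals. No difference therefore has a replicate check, and no p-value is given. How Pnpla7 was disrupted, the fat depot and the sex of the animals are not stated in the labels. The extraction text of every sample names livers, those of WAT included.

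Serpins share a fold in which an exposed loop is offered to a protease as bait. When the protease cuts the loop, the serpin snaps into a more stable form and carries the protease with it, so that both are spent. The liver secretes many of them into the blood, where they restrain elastase, thrombin, plasmin and complement proteases, while clade B serpins stay inside cells and restrain proteases of granules and lysosomes. Some members inhibit no protease and act as hormone carriers or as a chaperone.

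A level is given as the processed signal divided by the 75th percentile of its array, so that 1 is the signal of a fairly bright spot. A probe was called seen where it was well above background on the array and not saturated. A ratio is the log2 of the labelled-knockout level over the wild-type level in the same tissue, or of the WAT level over the liver level in the same genotype, averaged over the probes of a gene seen on both arrays. A gene was counted where its ratio reached 2-fold. Between probes of 1 gene the pooled SD of the ratio was 0.20 in liver and 0.23 in WAT over all genes, and 0.07 and 0.16 over the serpins with several probes. The scanner's own error model gave a median of 0.20 for both ratios.

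The arrays had from 65.5% to 72.6% of their spots above background and 0 saturated spots. All 10 adipocyte markers were seen in both WAT samples, 6 in labelled-knockout liver and 7 in wild-type liver. Their summed level (the brightest probe of each gene) was 972.4 in labelled-knockout WAT and 868.8 in wild-type WAT. In liver the sum was 102.5 in the labelled knockout and 114.7 in the wild type. Most of that liver sum was Pck1 alone, at 93.4 in labelled-knockout liver and 109.7 in wild-type liver. The 12 hepatocyte markers summed to 1573 in labelled-knockout liver and 1851 in wild-type liver. The Pnpla7 probe read 7.98 in labelled-knockout liver and 9.04 in wild-type liver (log2 ratio -0.18), and 0.372 in labelled-knockout WAT and 0.739 in wild-type WAT (log2 ratio -0.99). Whether this probe lies in the disrupted stretch is not known here, so the labels alone set the directions below, and the mutant arrays are called labelled knockout.

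In liver, 36 serpins were measured in both samples. Of these 2 were higher by 2-fold or more in the labelled knockout, against 1.75% of all 15568 genes, and 1 was lower by 2-fold or more, against 0.886%. The median log2 ratio was -0.15 for the serpins and -0.03 for all genes. The other 33 serpins lay within 2-fold. Ratios below 0 were found for 26 of the 36 serpins and for 55.8% of all genes. When the background was instead removed by the normexp model, which fits signal and noise together, the split of all genes turned: 103 were higher and 242 lower at an offset of 50, and 113 and 1467 at an offset of 0, where the main setting gave 273 and 138.

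Serpina7 had the higher ratio of the 2 serpins past 2-fold upward in labelled-knockout liver. It encodes thyroxine-binding globulin, a carrier of thyroid hormone that inhibits no protease. Its level was 2.86 in labelled-knockout liver and 0.758 in wild-type liver, a log2 ratio of 1.92 with a scanner error of 0.20. It was not well above background in either WAT sample, so that WAT lay at least 156.5-fold below liver in the labelled knockout and at least 60.0-fold below it in the wild type. Each bound divides the liver level by the dimmest level that still counted as seen on the WAT array. The Serpina7 probe spans chrX:135615848-135616502 (mm9, minus strand).

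Serpina9, known in human germinal-centre B cells as centerin, had levels of 0.352 in labelled-knockout liver and 0.165 in wild-type liver. Its log2 ratio of 1.09 lay just past 2-fold and was 0.64 and 0.72 with the normexp background at offsets of 50 and 0. The liver levels of the gene in both genotypes were above its WAT levels, 0.0322 in labelled-knockout WAT and 0.0251 in wild-type WAT.

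Serpinb1a was the 1 serpin at least 2-fold lower in labelled-knockout liver. It encodes an intracellular inhibitor of neutrophil elastase, cathepsin G and proteinase 3. Its level was 0.279 in labelled-knockout liver, 1.12 in wild-type liver, 0.754 in labelled-knockout WAT and 1.39 in wild-type WAT. The liver ratio was -2.00 on the log2 scale and the WAT ratio -0.88, so the labelled-knockout sample was the lower of the pair in both tissues. Of its target proteases, Elane had a log2 ratio of -0.23 in liver, Ctsg -0.59 and Prtn3 -0.06, and 0 of the 10 measured granule proteases reached 2-fold in liver. These targets were also picked after their values were seen.

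Markers of other cell types moved in the same liver pair. All 8 neutrophil markers measured in liver had ratios below 0, with a median of -0.77 and 1 at least 2-fold lower (Ltf, -1.65), and their sum was 2.39 in labelled-knockout liver against 3.74 in wild-type liver. Of 8 macrophage markers measured, Trem2 (2.45) and Itgax (1.26) were at least 2-fold higher. The median of the 8 was 0.18, and 3 of them had ratios below 0. A further macrophage marker, Gpnmb, was seen in labelled-knockout liver alone, at a level of 0.149, and has no ratio. Genes known to be female-biased in mouse liver were at least 2-fold lower for 13 of 21 measured, with a median of -1.30, and male-biased genes were at least 2-fold higher for 5 of 18 and lower for 1. The part of these shifts in the values of Serpina7, Serpina9 and Serpinb1a was not tested.

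**Figure D1:**
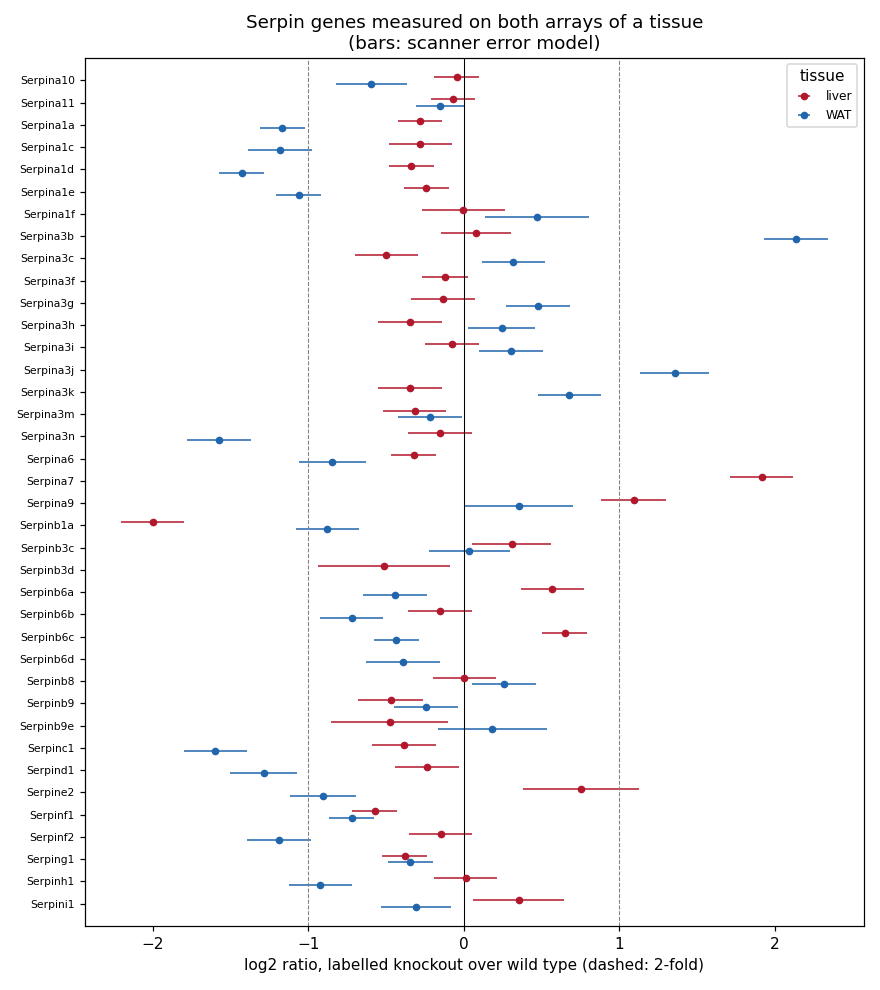
Log2 ratio of labelled knockout over wild type for each serpin measured on both arrays of a tissue, liver above WAT within each row, with bars for the scanner's error model and dashed lines at 2-fold. Serpina7 lies at 1.92 and Serpinb1a at -2.00 in liver, and the lower WAT values gather in Serpina1a, Serpina1c, Serpina1d, Serpina1e, Serpina3n, Serpinc1, Serpind1 and Serpinf2.

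The abundant plasma serpins of the liver differed by less than 2-fold between genotypes. Serpinc1, which encodes antithrombin, read 171.0 in labelled-knockout liver and 223.2 in wild-type liver. Serpina6, the corticosteroid-binding globulin, read 74.5 in labelled-knockout liver and 92.4 in wild-type liver on its brighter probe. Their log2 ratios were -0.38 and -0.32, each under 2-fold, and -0.08 and -0.16 under quantile normalization. The liver ratios of Serpind1 (heparin cofactor II), Serpinf2 (alpha-2-antiplasmin), Serpina10 (the inhibitor that works with protein Z) and Serping1 (the C1 inhibitor) were -0.24, -0.15, -0.04 and -0.38. Under quantile normalization they were -0.04, 0.02, 0.07 and -0.20, so that the small liver differences of the plasma serpins depended on the scaling in size and, for Serpinf2 and Serpina10, in sign. Serpinf1, which encodes pigment epithelium-derived factor and inhibits no protease, had -0.57 with its 2 probes at -0.58 and -0.56.

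In WAT, 35 serpins were measured in both samples. Of these 8 were lower by 2-fold or more in the labelled knockout, against 2.01% of all 16131 genes, and 2 were higher by 2-fold or more, against 2.16%. The median log2 ratio was -0.39 for the serpins and 0.02 for all genes. The lower members were Serpina1a, Serpina1c, Serpina1d, Serpina1e, Serpina3n, Serpinc1, Serpind1 and Serpinf2, and the higher ones were Serpina3b and Serpina3j. In bulk tissue, fewer cells of a type and less RNA per cell cannot be told apart.

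Serpinc1 had the lowest WAT ratio. Its level was 0.433 in labelled-knockout WAT and 1.31 in wild-type WAT, a log2 ratio of -1.60. Serpind1 read 0.0870 in labelled-knockout WAT and 0.212 in wild-type WAT (-1.29). Serpinf2, the main plasmin inhibitor of plasma, read 0.194 in labelled-knockout WAT and 0.442 in wild-type WAT (-1.19). For each of these genes the liver level stood far above both WAT levels, from 59.5 for Serpind1 in labelled-knockout liver to 223.2 for Serpinc1 in wild-type liver. With the normexp background at an offset of 50, Serpind1 in WAT came to -0.89, short of 2-fold.

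Serpina3n, a mouse relative of alpha-1-antichymotrypsin that is made in several tissues and inhibits granzyme B, read 0.847 in labelled-knockout WAT and 2.52 in wild-type WAT. Its log2 ratio was -1.57 in WAT and -0.15 in liver, where the levels were 9.35 in the labelled knockout and 10.4 in the wild type. Of the other Serpina3 genes, Serpina3b and Serpina3j went the opposite way in WAT. Serpina3b read 0.845 in labelled-knockout WAT and 0.192 in wild-type WAT (2.14), against 0.0855 in labelled-knockout liver and 0.0810 in wild-type liver. Serpina3j read 0.143 in labelled-knockout WAT and 0.0559 in wild-type WAT (1.36), was not well above background in either liver, and its ratio lay at the 2-fold limit with the normexp background at an offset of 50.

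The other Serpina3 genes measured in both WAT samples lay within 2-fold. Serpina3f was seen in wild-type WAT alone and Serpina3a on no array. Serpina3k, a rodent kallikrein-binding protein, read 1.47 in labelled-knockout WAT and 0.916 in wild-type WAT, a log2 ratio of 0.68. Serpina3g, an inhibitor of lysosomal cysteine proteases in mouse haematopoietic cells, had 0.48 and Serpina3m -0.22. Serpina3i had 0.31 on the probe seen in both samples, while its other probe was seen in labelled-knockout WAT alone. The genes of this cluster lie next to each other on chromosome 12, and 1 probe each of Serpina3h and Serpina3i shares a run of 22 bases, so the reading of such a probe cannot be laid to 1 gene with certainty.

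Serpina1 is the alpha-1 antitrypsin locus, which mouse carries as a row of near-identical copies and which supplies the main plasma inhibitor of neutrophil elastase. All 4 measured copies, Serpina1a, Serpina1c, Serpina1d and Serpina1e, were at least 2-fold lower in labelled-knockout WAT, with log2 ratios of -1.17, -1.18, -1.43 and -1.06. Serpina1c, for example, read 4.20 in labelled-knockout WAT and 9.53 in wild-type WAT, and 171.3 in labelled-knockout liver and 208.0 in wild-type liver. The liver ratios of the same copies ran from -0.34 (Serpina1d) to -0.24 (Serpina1e), and under quantile normalization from -0.06 (Serpina1d) to 0.08 (Serpina1e), with Serpina1a and Serpina1e above 0. Serpina1f, a member of the cluster with low signal on every array, had 0.47 in WAT.

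These copies are not independent readings, because probes of different copies share bases. A probe of Serpina1a and the only probe of Serpina1c share a run of 47 bases. Probes of Serpina1a, Serpina1c and Serpina1e hold a common run of 29 bases. The stretches below show it, with the common run in capitals, as printed on the array in mm9 on the minus strand of chromosome 12. The probes lie at chr12:105091819-105091878, chr12:105133165-105133224 and chr12:105185172-105185231, and whether these bases are coding or untranslated was not determined here.
Serpina1a: tGTCATCCTTCCTTCTGAATTGGGTTCCTT
Serpina1c: tGTCATCCTTCCTTCTGAATTGGGTTCCTT
Serpina1e: aGTCATCCTTCCTTCTGAATTGGGTTCCTT

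Probes with and without this run differed in the gap between tissues and much less in the ratio between genotypes. With the run, the log2 ratio of WAT over liver was -5.75, -5.35 and -6.03 in the labelled knockout and -4.84, -4.45 and -5.08 in the wild type for Serpina1a, Serpina1c and Serpina1e. Without it, the probes of Serpina1a, Serpina1d and Serpina1e had ratios from -9.36 to -7.92 in the labelled knockout and from -8.20 to -7.06 in the wild type. The size of the gap thus depended on the probe. The labelled-knockout over wild-type ratio in WAT ran from -1.22 to -1.18 on the probes with the run and from -1.52 to -0.90 on the others, and Serpina1e fell short of 2-fold (-0.90) when the probe with the run was left out.

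**Figure D2:**
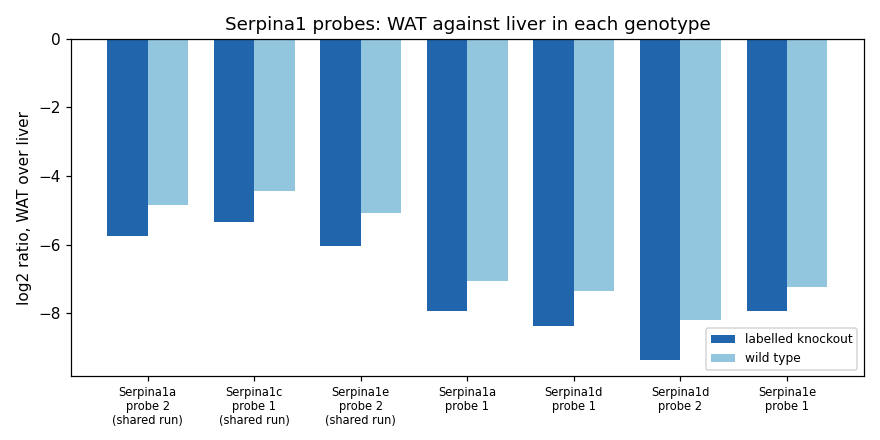
Log2 ratio of WAT over liver for each Serpina1 probe, labelled knockout left of wild type. The 3 probes with the common 29-base run reach from -6.03 to -4.45, while the 4 probes without it lie at -7.06 or below.

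The starts of the Serpina1 genes also resemble each other. Shown are the 100 bases before the annotated start of each copy, from RefSeq on the GRCm38.p6 build, minus strand of chromosome 12, with GTTAAT in capitals, a core of the motif bound by HNF1, a transcription factor of hepatocytes. The windows are chr12:103863620-103863719, chr12:103904951-103905050, chr12:103773634-103773733 and chr12:103956898-103956997. Within these windows they share a run of 38 bases that holds the motif, which begins 21, 27, 16 and 78 bases before the annotated start. The run starts at the first base shown for Serpina1e and ends at the last base shown for Serpina1d. It is thus cut by the windows and may be longer.
Serpina1a: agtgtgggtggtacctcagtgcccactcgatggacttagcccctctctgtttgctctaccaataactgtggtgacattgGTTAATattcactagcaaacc
Serpina1c: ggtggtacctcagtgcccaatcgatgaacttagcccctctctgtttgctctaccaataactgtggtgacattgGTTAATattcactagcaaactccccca
Serpina1d: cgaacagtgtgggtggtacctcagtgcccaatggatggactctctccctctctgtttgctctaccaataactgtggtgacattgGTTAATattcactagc
Serpina1e: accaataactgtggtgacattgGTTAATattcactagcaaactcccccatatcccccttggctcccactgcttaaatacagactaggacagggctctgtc

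GTTAAT on either strand was found in the 250 bases before the start of 10 of the 49 serpins with a promoter entry (20.4%), against 6.52% of 27025 genes. TATAAA, the TATA box, was found in 13 of the 49 (26.5%), against 13.0% of all genes. TGTTCT, a core of the glucocorticoid receptor's motif, was found in 17 (34.7%), against 16.2%. The STAT motif TTCNNNGAA was found in 7 (14.3%, against 7.18%), ACGTG, the core bound by hypoxia-inducible factors, in 5 (10.2%, against 16.6%), and TGTTTAC, bound by FOXA factors, in 0, against 3.09%. These are matches of letters and not sites, and the near-identical copies of Serpina1 count as 4 of the genes with GTTAAT and as 4 of those with TGTTCT. A promoter entry was at hand for 8 serpins at least 8-fold lower in WAT than in liver in both genotypes. Among these 8, the Serpina1 copies alone held GTTAAT.

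The tissue gap divided the family by clade. In the labelled knockout, 20 of 34 serpins measured in both tissues were at least 2-fold lower in WAT and 8 at least 2-fold higher, against 13.7% and 17.7% of 15338 genes. In the wild type, 21 of 34 were lower and 8 higher, against 15.6% and 18.1% of 15305 genes. The median log2 ratio of the serpins was -2.25 in the labelled knockout and -2.38 in the wild type, against 0.14 and 0.04 for all genes. With the normexp background, the wild-type split of all genes moved to 1825 higher and 2381 lower (offset 50) or 1948 and 3215 (offset 0), where the main setting gave 2775 and 2380.

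Clade A leaned to the liver. Of its genes measured in both tissues, 14 of 17 were at least 2-fold lower in WAT in the labelled knockout and 15 of 18 in the wild type, with median log2 ratios of -5.35 and -4.58. Serpina6 had the widest gap, -9.97 in the labelled knockout and -9.44 in the wild type. The measured exceptions past 2-fold were Serpina3b, at 3.30 in the labelled knockout and 1.24 in the wild type, and Serpina3i, at 1.15 and 1.83. The 2 probes of Serpina3i were at -0.05 and 2.36 in the labelled knockout. Its wild-type value rests on the second of these alone, since the first was not seen in wild-type WAT. On that shared probe the gap was thus 2.36 in the labelled knockout and 1.83 in the wild type. Serpina3j, seen in WAT and in neither liver, was at least 9.59-fold higher in WAT in the labelled knockout and at least 3.23-fold higher in the wild type. Serpina12, or vaspin, an adipokine in rodents, was seen in labelled-knockout liver alone, at a level of 0.0164, and was not well above background in either WAT sample.

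Clade B was close to even between the tissues or higher in WAT, and much of it was not detected. Of its 26 genes, 14 were well above background on no array, among them Serpinb2 and Serpinb5 (maspin), and 8 were seen on all. How many of all genes were seen on no array was not counted, so these counts have no like share beside them. On single arrays from 65.5% to 72.6% of all spots were above background, which is a different measure. The median log2 ratio of WAT over liver was 0.50 in the labelled knockout, over 9 genes, and 0.60 in the wild type, over 8. Serpinb8, reported to inhibit furin, was the clade B gene at least 2-fold lower in WAT in both genotypes, at -2.14 in the labelled knockout and -2.39 in the wild type.

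Serpinb6a, whose product inhibits cathepsin G and other proteases inside cells, read 6.98 in labelled-knockout liver, 4.70 in wild-type liver, 9.54 in labelled-knockout WAT and 13.0 in wild-type WAT. It was higher in WAT than in liver in both genotypes, and the labelled knockout was above the wild type in liver and below it in WAT. Its log2 ratios between genotypes, 0.57 in liver and -0.44 in WAT, did not reach 2-fold. Serpinb6c had 0.65 and -0.43, but its probes and that of Serpinb6a hold a common run of 26 bases, in capitals below, so the genes may be read together. The probes are on chromosome 13, minus strand, mm9, at chr13:34009796-34009855 for Serpinb6a and at chr13:33971686-33971745 and chr13:33971703-33971762 for Serpinb6c.
Serpinb6a: AAGTGACCTTATCCATAAGTGCAATGgcaa
Serpinb6c probe 1: cAAGTGACCTTATCCATAAGTGCAATGaca
Serpinb6c probe 2: ccAAGTGACCTTATCCATAAGTGCAATGac

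Serpinb9 shields cells from granzyme B, and its log2 ratio was -0.47 in liver and -0.24 in WAT. Serpinb3c, whose probe is printed as 10 spots, gives a direct measure of the spot error: over the spots usable on both arrays, the SD of the ratio was 0.41 over 7 spots in liver and 0.18 over 9 spots in WAT. The mean ratio over those same spots was 0.07 in liver and 0.05 in WAT. Its ratios in the main setting, 0.31 in liver and 0.04 in WAT, average the spots usable on each array. They are means over several spots, so the SD of single spots is not their error.

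**Figure D3:**
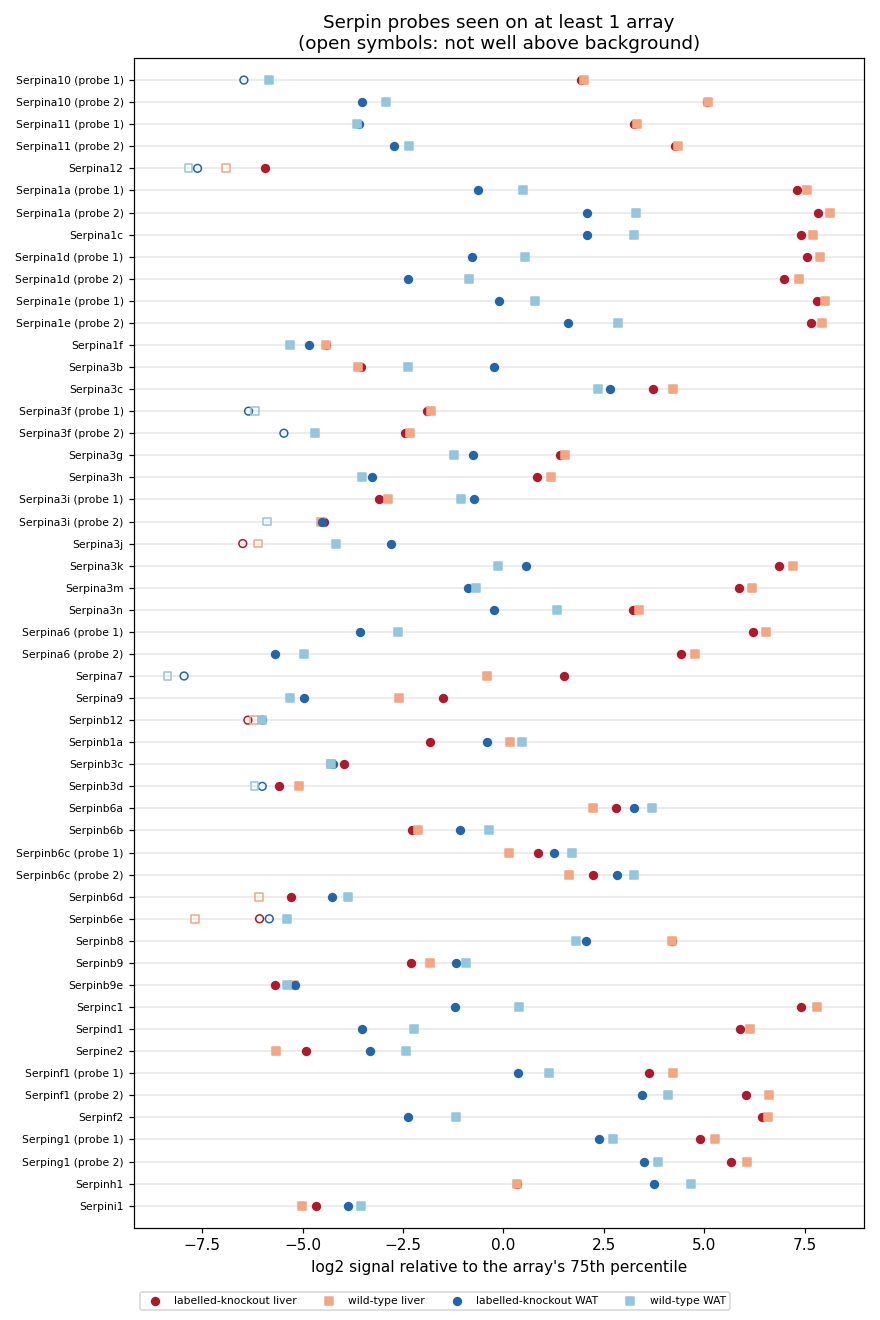
Log2 level relative to the array's 75th percentile of each serpin probe seen on at least 1 array, with labelled-knockout liver, wild-type liver, labelled-knockout WAT and wild-type WAT as symbols in each row, open where the probe was not well above background. Symbols are to be compared within a row and not between rows, and most clade A rows have both livers far to the right of both WAT samples.

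Serpinh1, Serpine2 and Serpini1 had higher levels in WAT than in liver in both genotypes. Serpinh1, the collagen chaperone HSP47, which inhibits no protease, read 13.5 in labelled-knockout WAT and 25.6 in wild-type WAT, against 1.27 in labelled-knockout liver and 1.26 in wild-type liver. The log2 ratio between genotypes was -0.92 in WAT and 0.01 in liver, so that it lay just short of 2-fold in WAT, and it reached -1.05 under quantile normalization. Serpine2, or protease nexin 1, an inhibitor of thrombin and urokinase at cell surfaces, had -0.91 in WAT, with 0.0994 in labelled-knockout WAT and 0.186 in wild-type WAT. Its liver ratio of 0.76 came from dim signals and turned to -0.62 and -0.83 with the normexp background at offsets of 50 and 0. Serpini1, or neuroserpin, had -0.31 in WAT and 0.35 in liver, where it too turned to -0.62 and -0.81 with that background. Serpini2 was not well above background on any array.

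The collagens, whose folding Serpinh1 assists, and the enzymes and chaperones of that folding were also read. Of 25 measured in WAT, 3 were lower by 2-fold or more in the labelled knockout and 0 higher, and all had ratios below 0, from -1.27 (Col6a2) to -0.09, with a median of -0.61. The other members counted were Col15a1 (-1.10) and Col5a1, whose ratio lay at the 2-fold limit. Over all genes in WAT, 47.2% had ratios below 0, 2.01% were at least 2-fold lower and 2.16% at least 2-fold higher. In liver 0 of 24 reached 2-fold, with a median of 0.16. The 7 fibroblast markers measured in WAT had a median of -0.24 with 0 past 2-fold, and their sum was 181.7 in labelled-knockout WAT and 206.9 in wild-type WAT. The 8 endothelial markers had a median of -0.45, with 1 lower by 2-fold or more. The part of these cells in the values of Serpinh1 and Serpine2 was not tested.

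The 13 serpins that were at least 8-fold lower in WAT than in liver in both genotypes held 7 of the 8 lower calls in WAT. This split was chosen after the data were seen. It also uses the same WAT levels as the ratio between genotypes, so the split and that ratio are not independent. The 13 genes had a median log2 ratio of -1.06 between genotypes in WAT, with 7 at least 2-fold lower and 0 higher. All 553 genes with such a gap had a median of -0.17, with 91 (16.5%) at least 2-fold lower and 36 (6.51%) at least 2-fold higher. The other 22 serpins measured in WAT had a median of -0.28, with 1 lower (Serpina3n) and 2 higher.

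Hepatocyte markers were in part lower in labelled-knockout WAT. Of 12, all seen in both WAT samples, 5 were lower by 2-fold or more in the labelled knockout (Cyp3a11 -1.81, Ttr -1.62, Alb -1.58, Apob -1.39 and Fabp1 -1.11), 0 were higher, and the median was -0.65. Alb read 3.37 in labelled-knockout WAT and 10.1 in wild-type WAT. The sum over the list ran the other way, 295.3 in labelled-knockout WAT and 213.3 in wild-type WAT. Most of it came from Cyp2e1 and Trf, both bright in WAT, with ratios above 0 (0.97 and 0.28). Cyp2e1 read 174.9 in labelled-knockout WAT and 97.7 in wild-type WAT, and Trf read 113.3 and 98.3. The other 10 markers had ratios below 0, against 47.2% of all genes in WAT. Of all genes, 2.01% were at least 2-fold lower in labelled-knockout WAT. The part of hepatocyte RNA in the WAT values of Serpina1, Serpinc1, Serpind1 and Serpinf2 was not tested.

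Other marker lists moved in the same WAT pair. All 8 skeletal muscle markers were at least 2-fold higher in labelled-knockout WAT (median 4.47), with sums of 37.3 in labelled-knockout WAT and 2.61 in wild-type WAT. All 6 brown or beige adipocyte markers were at least 2-fold higher too (median 2.30), as were 5 of 9 measured epithelial markers (median 1.03). Of 8 measured macrophage markers 1 was higher and 1 lower (median -0.60). Over all genes, 2.16% were at least 2-fold higher in that pair and 2.01% at least 2-fold lower. The part of these cell types in the serpin values was not tested.

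Proteases of coagulation, fibrinolysis and complement, of which serpins restrain some, were in part lower in WAT too. Of 21 such proteases, 5 were at least 2-fold lower in labelled-knockout WAT and 1 higher, with a median of -0.40. The shares over all genes were 2.01% and 2.16%. Plg, the precursor of plasmin, had a log2 ratio of -1.60 and F2, prothrombin, which Serpinc1 inhibits once it is activated, -1.56. F12 was at -1.34, and Hpn, a membrane protease of hepatocytes and epithelia, was the higher one at 1.75. In liver 0 of 19 reached 2-fold, with a median of -0.32. Of a list of serpin cofactors, receptors and related genes, 2 of 21 were at least 2-fold higher in liver. They were Anxa2, an annexin that gathers plasminogen and its activator on cell surfaces, at 1.31 and Plaur, the urokinase receptor, at 1.16. In WAT 3 of 21 were lower, Asgr1 at -1.54, Kng1 at -1.28, with its brighter probe short of 2-fold at -0.87, and Proz, the cofactor of Serpina10, at -1.20, while Serpina10 itself was at -0.59.

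Acute phase genes, the group to which several serpins belong, had ratios of both signs in both tissues, while those past 2-fold in WAT were all lower. In WAT 14 of 21 measured had ratios below 0, against 47.2% of all genes, with a median of -0.40. In the labelled knockout 7 of 21 were lower by 2-fold or more, against 2.01% of all genes, and 0 higher. The lowest were Lbp at -2.51, Saa3 at -2.15 and Fgg at -1.63. Saa2, Saa4, Crp and Il1rn were seen in wild-type WAT, at low levels from 0.0200 to 0.0406, and not in labelled-knockout WAT. In liver 1 of 26 was higher (Saa3, 1.76) and 2 were lower (Orm2, -1.25, and Orm1, -1.15), so that Saa3 was higher in labelled-knockout liver and lower in labelled-knockout WAT. Glucocorticoid genes, relevant to Serpina6, had 2 of 13 lower in liver (Mt1 at -1.49, with its brighter probe at -0.23 and the other at -2.76, and Dusp1 at -1.04) and 1 of 13 higher in WAT (Hsd11b1 at 1.18). No liver transcription factor of the list reached 2-fold, of 15 measured in liver and 8 in WAT, nor did any of 14 cathepsins in either tissue or of 13 granule proteases in WAT.

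**Figure D4:**
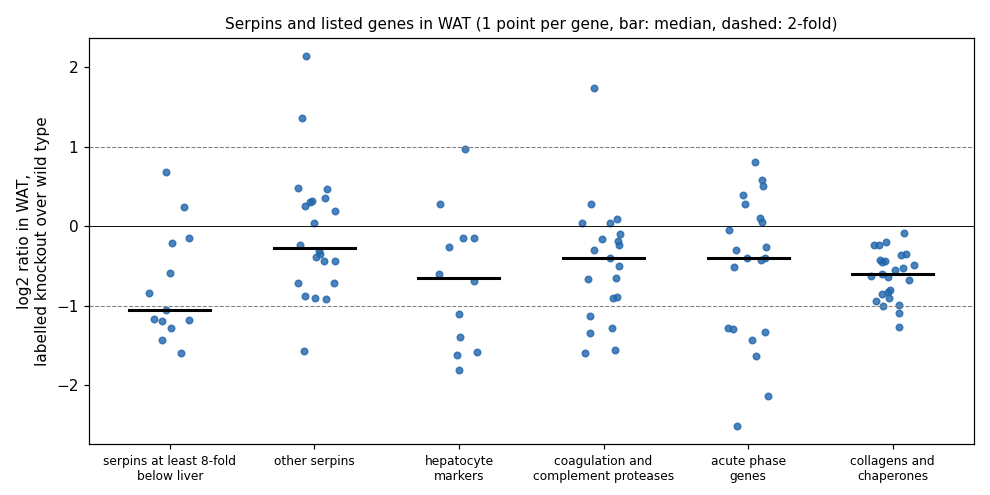
Log2 ratio of labelled-knockout over wild-type WAT, 1 point a gene with the median as a bar and dashed lines at 2-fold, for the serpins at least 8-fold below liver, the other serpins and the listed gene groups. The medians are -1.06 for the first group, -0.28 for the other serpins, -0.65 for hepatocyte markers, -0.40 for the proteases and for acute phase genes, and -0.61 for collagens and their chaperones. The serpins were split by their WAT and liver levels, while no such filter was put on the listed groups.

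Members seen on 1 array of a pair gave bounds and no calls. In liver Serpina12 and Serpinb6d were seen in the labelled knockout alone, and in WAT Serpina3f, Serpinb12 and Serpinb6e in the wild type alone, and no lower bound on these differences was above 1.71-fold. Seen on no array were 17 of the 58 genes, 14 of clade B, 2 of clade A and 1 of clade I. The same share over all genes was not counted. Of the 22327 named genes, 15568 were measured on both liver arrays and 16131 on both WAT arrays, against 36 and 35 of the 58 serpins. In all, 38 serpins were seen in labelled-knockout liver, 36 in wild-type liver, 35 in labelled-knockout WAT and 38 in wild-type WAT, and 33 on every array.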

How the data were processed

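Intensities were read from the 4 deposited scanner files. Per the file headers, the authors used Agilent Feature Extraction 11.0.1.1, which gave a background-subtracted processed signal. The deposited value table holds those intensities divided by the 75th percentile in the file headers, linear and not centred, with column medians from 0.0810 to 0.0965. All arrays lay on 1 slide.

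Here signals were divided by the array's 75th percentile and turned to log2. Controls and outlier spots (79 to 110 an array) were dropped, and repeat spots averaged. A probe counted as seen where over 0.5 of its spots were well above background. Probes were named through RefSeq (GRCm38.p6): 27234 by accession, 3576 by symbol, 565 by synonym, 8054 by none. The normexp alternative used limma 3.58.1.

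A gene that the naming rule takes in is not reported here and enters no count of members. With 1 array a group, genes were counted at 2-fold and not tested. Members, lists, limits and the rule for named genes were chosen with earlier results of these data known. Named were members past 2-fold, those whose probes differed by over 1 (log2), a fixed set of well-known serpins, and up to 3 genes a list. The counting step was run on simulated data, with the spread between probes of a gene as the only noise. Of 50 genes given a 2-fold difference, 19 were counted in liver and 28 in WAT. At 3-fold all 50 were counted in each tissue. Variation between pools of animals was not simulated. The number of arrays limits the precision.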

Additional observations from a re-analysis of the deposited data

How the results depend on the processing

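The alternatives were the normexp background at offsets of 50 and 0, quantile normalization, the 75th percentile over probes seen on both arrays, no filter on dim probes, the brightest probe of a gene, the authors' value table, and leaving out probes that share a run of 20 or more bases with another member. Serpins at least 2-fold lower in labelled-knockout liver numbered 2 with normexp at an offset of 50, 3 at an offset of 0 and 4 with no filter, against 1 in the main setting. Serpins at least 2-fold higher in labelled-knockout liver numbered 1 with normexp at either offset and 4 with no filter, against 2. With no filter the median log2 ratio of WAT over liver was -0.29 in the labelled knockout and -0.57 in the wild type, since all 58 genes then counted, also those near background. The cause of the other shifts was not tested. The other counts and medians of the family stayed within 1.5 times or the spread of the probes. In liver, normexp moved the median of all genes to -0.19 (offset 50) and -0.20 (offset 0), against -0.03. For wild-type WAT over liver it moved that median to -0.21 and -0.23, and the percentile over probes seen on both arrays moved it to 0.17, against 0.04. Of 50 ratios of named serpins, 9 moved by more than the spread with normexp at 50, 5 at 0, 7 with quantile normalization and 1 with no filter. No paired analysis was possible because each group has 1 array, and no slide block could be fitted because there is 1 slide. Genes near background are limited by signal: the floor of a well-measured level lay from 0.0126 to 0.0183 over the arrays.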

Other observations

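A few serpin relatives fall outside the naming rule and were looked at after their values were seen. Agt, the angiotensinogen gene and a serpin by fold, read 10.4 in labelled-knockout liver, 13.9 in wild-type liver, 2.10 in labelled-knockout WAT and 1.32 in wild-type WAT. Its log2 ratio was -0.41 in liver and 0.67 in WAT. Its WAT ratio thus had the opposite sign to those of Serpina1 and Serpinc1. The pseudogene Serpina4-ps1 was read by 2 probes in liver, with log2 ratios of 1.03 and 0.93, and neither was seen in labelled-knockout WAT.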
